A study of Rattus norvegicus with 36 samples.

Results

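The postnatal change of the Lewis rat lung between postnatal day 7 (PN7) and postnatal day 14 (PN14) was described from the 4 Lewis PN14 arrays and the 4 Lewis PN7 arrays, chosen by the strain and age in their labels, out of 36 arrays in the series. Each array measured RNA from whole lung on a one-colour rat beadchip. The series covers 3 inbred strains, Lewis, Fisher and Brown Norway, at postnatal days 1, 7 and 14, and its labels give no treatment and no genetic alteration. The other groups used below were Lewis PN1 (n = 3), Fisher PN14, PN7 and PN1 (n = 4 each), Brown Norway PN14 and PN7 (n = 4 each) and Brown Norway PN1 (n = 5). The labels do not say whether the replicates were separate animals, so the p-values measure the spread between arrays, which may be partly technical.

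In the rat, most alveoli form after birth. Septa rise from the walls of the saccules, with elastic fibres laid down by myofibroblasts at their tips, while fibroblasts, epithelium and endothelium divide; the septa then thin and their capillaries are remodelled. Over the same weeks the epithelium builds up its thin type I cells and surfactant-making type II cells, the airways gain secretory and drug-metabolising functions, and immune cells settle in the tissue.

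Between 9634 and 10583 probes were detected on the 8 arrays (detection p under 0.01), and the median raw intensity lay between 212.76 and 294.89. Levels are given as background-corrected, quantile-normalised log2 intensity, on which undetected probes lie near 8, and a difference is PN14 minus PN7 on that log2 scale. The lung's defining markers were high: the surfactant protein C gene Sftpc lay between 14.4 and 14.6 on the PN14 arrays and between 13.94 and 14.32 on the PN7 arrays, and Scgb1a1, the club cell secretory protein, was near the top of the scale on all 8. Correlations over all tested probes ran from 0.981 to 0.998 within PN14, from 0.99 to 0.995 within PN7 and from 0.963 to 0.984 between the ages. The arrays came from 3 slides: PN14 replicate 1 shared slide 2 with PN7 replicates 2 to 4, PN14 replicates 2 to 4 were on slide 3, and PN7 replicate 1 was on slide 1. The only comparison of the ages inside one slide therefore set 1 PN14 array against 3 PN7 arrays, with the spread taken from all 12 arrays of slide 2.

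PN14 replicate 2 stood apart through genes of striated muscle and fat. The mean level of the 26 measured skeletal muscle genes was 8.51, 10.95, 8.53 and 8.96 on PN14 replicates 1 to 4, against 8.55, 8.95, 8.73 and 8.56 on PN7 replicates 1 to 4. Acta1, skeletal muscle actin, had 8.29, 15.7, 8.3 and 8.57 at PN14, against 8.36, 10.3, 9.64 and 8.51 at PN7, so the largest excess was on 1 array and the ages overlapped (difference 1.01 ± 1.15 SE, adjusted p = 0.534). Ckm, muscle creatine kinase, was likewise highest on PN14 replicate 2, at 14.97. The brown fat gene Ucp1 had 9.98, 14.45, 8.07 and 12.01 at PN14, against 8.06, 11.95, 10.25 and 12.22 at PN7. The heart markers Nppa and Tnnt2 also differed more within each age than between the ages, and none of the 20 measured heart genes passed the test. Outside Lewis, Brown Norway PN1 replicate 5 and PN14 replicate 3 each resembled the other's group; they enter the shared spread and the Brown Norway means. The main counts were repeated without PN14 replicate 2, and the skeletal muscle genes Myoz1 and Tnnt3, which passed the test, differed by 0.24 and 0.19 without that array, against 1.04 and 0.55 with it.

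**Figure D1:**
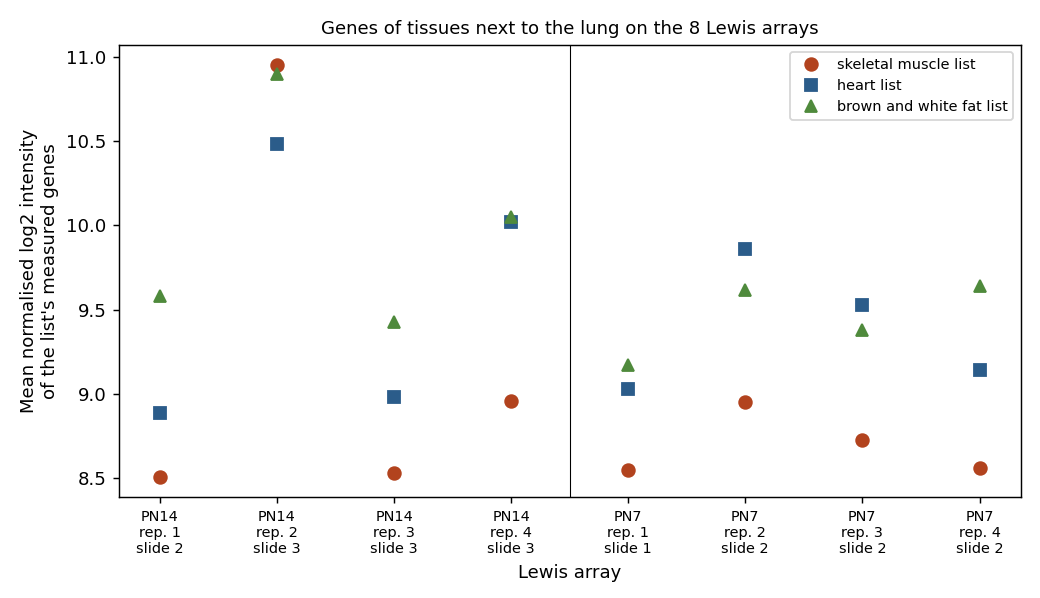
Mean normalised log2 intensity (vertical axis) of the skeletal muscle, heart and brown and white fat gene lists on each Lewis array (horizontal axis, with its slide), PN14 left of PN7, 1 symbol per list. PN14 replicate 2 is the highest array for each list, at 10.95 for skeletal muscle; the other 3 PN14 arrays lie between 8.51 and 8.96 for that list, against 8.55 to 8.95 at PN7.

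Of 11339 tested probes, 3687 (32.5%) differed between PN14 and PN7 at an adjusted p under 0.05 (limma, Benjamini-Hochberg over all tested probes): 1696 were higher at PN14 (15%) and 1991 lower (17.6%). Most of these differences were small, with 99 probes at least 2-fold higher and 112 at least 2-fold lower. The balance of directions depended on the scaling: with each array centred on its median instead of quantile-normalised, 1977 probes were higher and 350 lower. Without PN14 replicate 2 the count was 3285 (29%), with 1553 higher (13.7%) and 1732 lower (15.3%), and 3141 of them were among the 3687. On slide 2 alone, 1685 of the 1696 higher probes and 1975 of the 1991 lower ones had the same sign, and 1708 probes passed there (15.1%; 8.44% higher and 6.62% lower), 1453 of them among the 3687. The Lewis arrays of slide 2 also enter the main fit, so shared signs there are no independent check. With slide as a fixed block 1811 probes passed (16%, with 6.94% higher and 9.03% lower), 1671 of them shared with the 3687. The 4 PN14 arrays lay wholly above the 4 PN7 arrays for 15.2% of probes and wholly below them for 17.4%. The shares of 15% higher and 17.6% lower over all tested probes are the background for every count of a gene list below. Because tissue was measured whole, fewer cells of a type and less RNA per cell cannot be told apart in any result below.

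**Figure D2:**
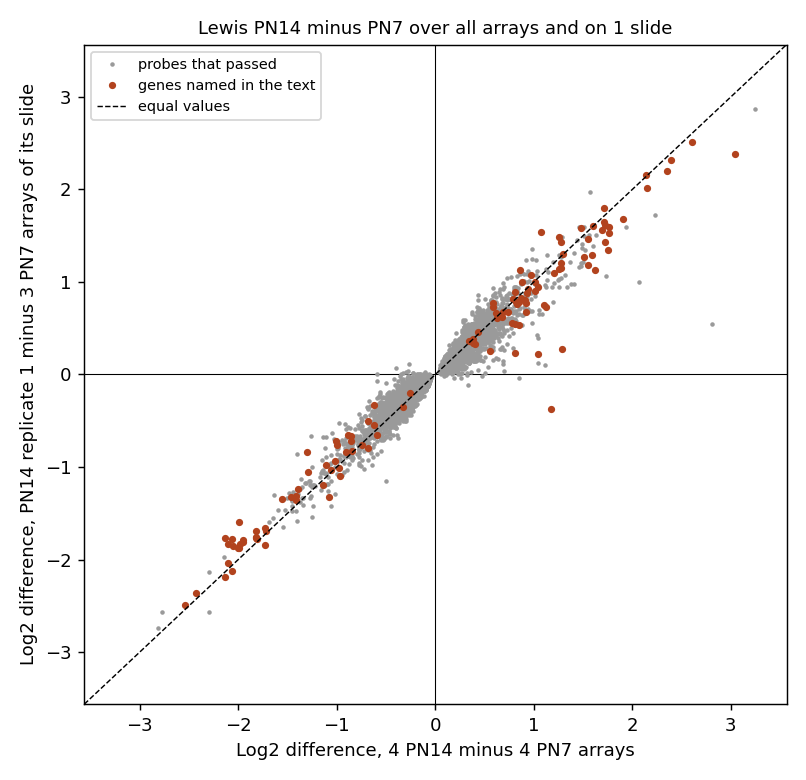
Log2 difference PN14 minus PN7 over all 8 Lewis arrays (horizontal axis) against the difference between PN14 replicate 1 and the 3 PN7 arrays of slide 2 (vertical axis), 1 point per probe that passed the test, with the genes named in the text in a second colour. Most points lie near the dashed line of equal values, and of the 211 probes past 2-fold 210 have the same sign on both axes; the exception, Rpl30, lies at 1.17 and -0.37.

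Cell division genes gave the most uniform change. Of 49 measured genes of the cell cycle list (replication, chromosome segregation and their kinases), 47 fell and none rose, beside a background of 17.6% of probes lower; the median difference was -0.88, against a median of 0 over all tested probes. Aurkb and Ccne1 did not pass. Rrm2, the ribonucleotide reductase subunit that supplies deoxynucleotides, had 9.27, 9.11, 9.05 and 9.37 on PN14 replicates 1 to 4, against 11.62, 11.83, 11.85 and 11.23 on PN7 replicates 1 to 4. All PN14 arrays lay below all PN7 arrays, and the level was 5.38-fold lower (difference -2.43 ± 0.29 SE, adjusted p = 3.28e-07). Cdk1, the kinase that drives entry into mitosis, had 10.44, 10.13, 9.95 and 10.31 at PN14, against 12.42, 12.54, 12.14 and 12.12 at PN7, a 4.29-fold lower level (adjusted p = 2.19e-08). Its partner cyclin B2, Ccnb2, had 10.66, 10.23, 10.16 and 10.54 at PN14, against 12.79, 12.7, 12.35 and 12.27 at PN7 (adjusted p = 2.71e-07). Neither gene overlapped between the ages.

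Of the 20 named genes with the lowest differences, 8 belonged to the cell cycle list. Among them, cyclin A2 (Ccna2) fell by 2.0, Ube2c, which feeds ubiquitin to the anaphase-promoting complex, by 1.99, Prc1, a bundler of spindle midzone microtubules, by 1.95, Tpx2, a spindle assembly factor, by 1.95, and Cks2, a small subunit that binds cyclin-dependent kinases, by 1.82. The mitotic kinesins Kif22 and Kifc1 fell by 1.98 and 1.82, and the kinetochore protein gene Knstrn by 2.05. Mcm6, a subunit of the replicative helicase, fell by 1.41, and Foxm1, a transcription factor of mitotic genes, by 0.62. Mki67, the usual proliferation marker, was dim on this array: it had 8.28, 8.25, 8.25 and 8.31 at PN14, against 8.56, 8.62, 8.71 and 8.55 at PN7, and fell by 0.33 (adjusted p = 4.11e-06). With the authors' deposited log2 values the difference was -1.33 for Mki67 and -1.69 for Foxm1. Without PN14 replicate 2 the count was again 47; with slide as a fixed block 46 of the 49 genes were lower, on slide 2 alone 39, and with median scaling 42.

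The promoters of these genes are shown because mitotic genes share a pair of short elements near their start: the CCAAT box, bound by NF-Y, and the cell cycle genes homology region, whose core was searched here as TTTGAA. Promoter windows came from RefSeq (assembly GRCr8), from 250 bases before to 50 after each start, and 37 of the 49 genes had an entry, with 38 windows. The 150 bases before the start are printed 5′ to 3′ on the gene's strand for the 4 of these 8 genes that had an entry, with matches to either motif in capitals; on the opposite strand they read TTCAAA and ATTGG.
Ccnb2, chr8:79981659-79981808, minus strand: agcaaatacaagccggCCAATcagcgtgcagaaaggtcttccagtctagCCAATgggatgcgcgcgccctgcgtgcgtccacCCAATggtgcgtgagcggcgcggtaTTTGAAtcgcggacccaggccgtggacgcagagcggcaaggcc
Cdk1, chr20:19265143-19265292, plus strand: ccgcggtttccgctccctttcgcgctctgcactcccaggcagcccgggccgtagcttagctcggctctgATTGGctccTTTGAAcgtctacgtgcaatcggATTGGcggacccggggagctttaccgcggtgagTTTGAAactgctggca
Prc1, chr1:143659331-143659480, plus strand: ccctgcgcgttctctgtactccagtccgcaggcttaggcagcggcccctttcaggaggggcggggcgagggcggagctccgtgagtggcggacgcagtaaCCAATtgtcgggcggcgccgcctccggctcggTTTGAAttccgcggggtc
Cks2, chr17:13727520-13727669, minus strand: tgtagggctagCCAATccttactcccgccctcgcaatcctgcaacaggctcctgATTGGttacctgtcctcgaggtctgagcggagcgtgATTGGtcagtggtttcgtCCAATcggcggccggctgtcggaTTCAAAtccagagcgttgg
A TTTGAA match began 43 bases before the start in Ccnb2, 72 and 16 bases before it in Cdk1, 18 bases before it in Prc1 and 19 bases before it, on the other strand, in Cks2. Over the list, 57.9% of windows held TTTGAA, against 18.3% of 33469 rat promoter windows of the same length. CCAAT was in 71.1% of the list's windows, against 37.5% of all windows, and both motifs were in 47.4%, against 7.41% of all. The start in each window is that of its promoter entry. For Ccnb2, Cdk1 and Prc1 it lay inside the annotated span of the gene. The printed bases therefore lie partly within the gene for Ccnb2 and Cdk1 and wholly within it for Prc1. The motifs do not overlap each other in letters, and a match describes the sequence only.

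The group means of division genes followed different courses over the 3 ages in the 3 strains. In Lewis the mean level of the 49 genes was 10.15 ± 0.02 at PN1 (SD, n = 3), 10.1 ± 0.12 at PN7 and 9.08 ± 0.04 at PN14 (n = 4 each), so the lower level appeared in the second postnatal week. In Fisher lungs it was 10.61 ± 0.08 at PN1, 9.52 ± 0.24 at PN7 and 9.24 ± 0.06 at PN14 (n = 4 each). In Brown Norway lungs it was 9.34 ± 0.17 at PN1 (n = 5), 10.41 ± 0.1 at PN7 and 9.24 ± 0.21 at PN14, where replicate 3, an array that resembled the PN1 group, lay at 9.49. Brown Norway PN1 replicate 5, which resembled the PN14 group, lay at 9.18. The PN14 minus PN7 change was more negative in Lewis than in Fisher for 37 of the 49 genes by the interaction test (background 2.9% of probes); with median scaling all 37 kept their sign, but 2, Tpx2 and Ttk, passed, and the median difference of changes over the list was -0.6 there, against -0.66. Against Brown Norway 1 gene differed, the checkpoint kinase Bub1, with a difference of changes of 0.53, a call lost with median scaling. The Lewis arrays are shared by both of these comparisons, and the Fisher and Brown Norway ages were each on 1 slide, with PN14 on slide 3 and PN7 on slide 2. All PN1 arrays were on slide 1 except Brown Norway replicate 5, on slide 3. Age and slide therefore largely went together in these courses, and PN1 levels were not compared between the strains by a test.

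**Figure D3:**
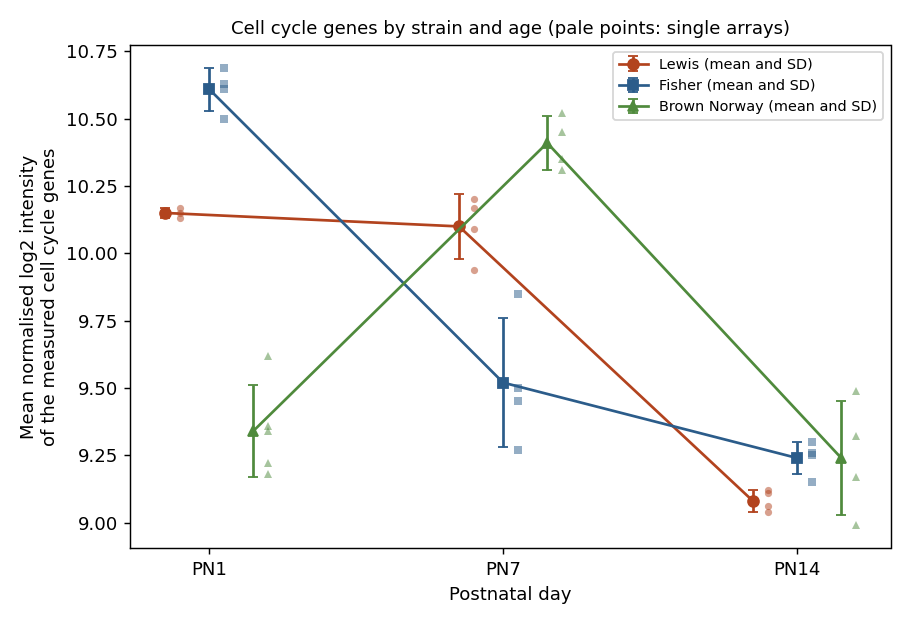
Mean normalised log2 intensity of the 49 cell cycle genes (vertical axis) by postnatal day (horizontal axis) for Lewis, Fisher and Brown Norway; pale points are arrays, and large symbols with bars are group means and SD. Lewis stays near 10.1 until PN7 and lies at 9.08 at PN14, while Fisher is already at 9.52 at PN7.

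Among the genes that rose most were flavin, amine and cytochrome oxidases. Fmo2, the main flavin mono-oxygenase of the lung in many mammals, had 10.74, 11.22, 11.26 and 12.31 on PN14 replicates 1 to 4, against 8.31, 8.32, 8.32 and 8.43 on PN7 replicates 1 to 4. PN7 was close to the floor of the array and every PN14 array was well above it, an 8.22-fold higher level (difference 3.04 ± 0.34 SE, adjusted p = 9.61e-08). Aoc3, vascular adhesion protein 1, an amine oxidase of smooth muscle, endothelium and adipocytes, had 13.77, 13.71, 13.76 and 13.8 at PN14, against 10.86, 10.94, 11.33 and 11.49 at PN7 (6.08-fold higher, adjusted p = 1.64e-07). Cyp2e1, a cytochrome P450 of solvent and ethanol oxidation, had 10.65, 10.8, 10.77 and 10.94 at PN14, against 8.42, 8.43, 8.36 and 8.54 at PN7 (5.11-fold higher, adjusted p = 1.21e-08). None of these genes overlapped between the ages.

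**Figure D4:**
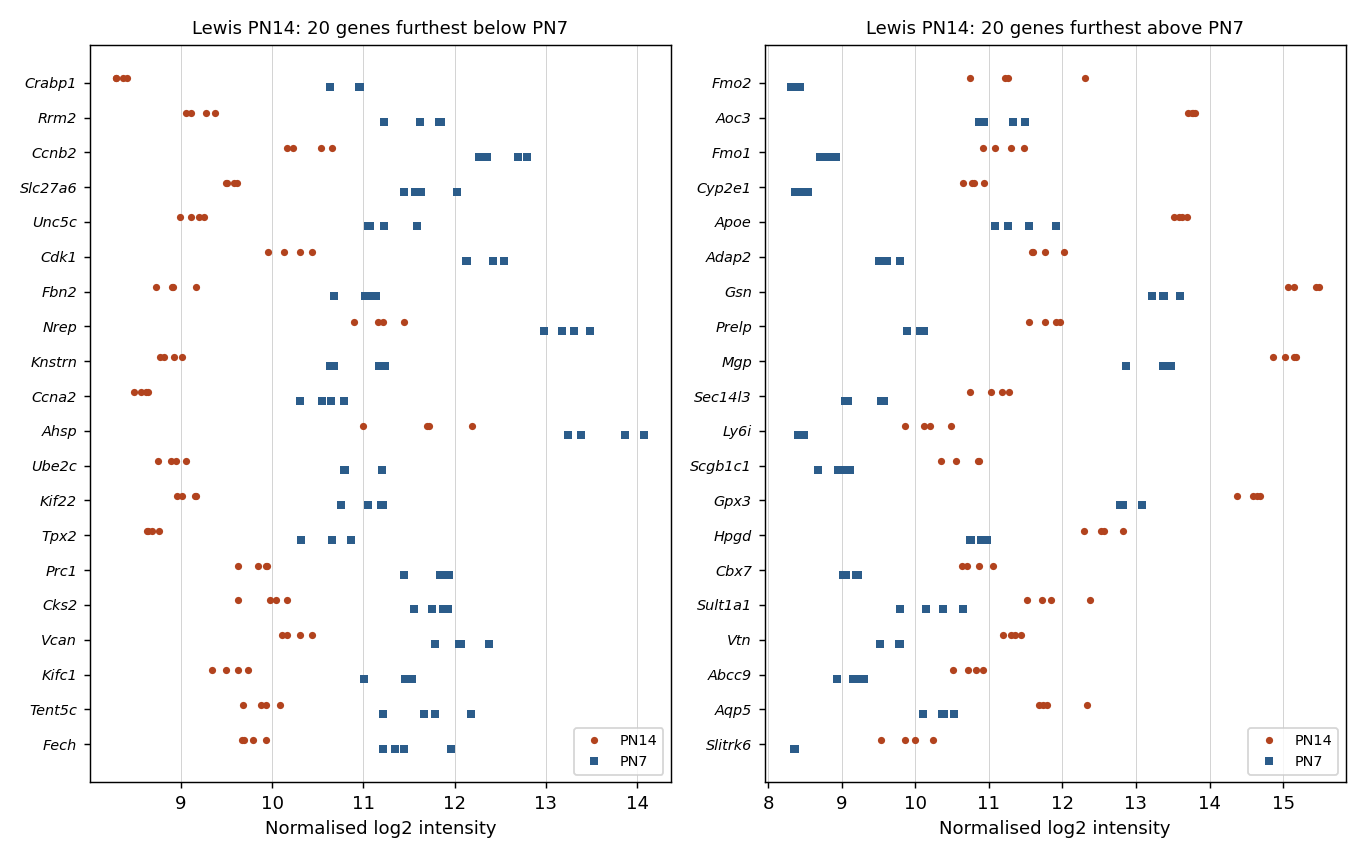
Normalised log2 intensity (horizontal axis) on each of the 8 Lewis arrays for the 20 named genes with the lowest (left panel) and the 20 with the highest (right panel) differences, with circles for PN14 and squares for PN7. No circle reaches the squares of its own gene: Crabp1 lies between 8.29 and 8.41 at PN14 and between 10.63 and 10.96 at PN7, and Fmo2 between 10.74 and 12.31 at PN14 and between 8.31 and 8.43 at PN7.

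Of 21 measured genes of xenobiotic metabolism, 13 rose and none fell, beside 15% of probes higher over the array, with a median difference of 0.64. Besides those above, Fmo1 rose by 2.39, the sulfotransferase Sult1a1 by 1.62, Cyp2a3 by 1.29, the lung and kidney P450 Cyp4b1 by 1.2 and aldehyde oxidase Aox1 by 1.1. Without PN14 replicate 2 the count was 12, and with slide as a fixed block 9 genes of the list were higher. Cyp2a3 was uneven, at 8.83, 10.62, 9.37 and 10.43 at PN14, against 8.41, 8.69, 8.32 and 8.65 at PN7, and its call was lost on slide 2 alone, with a difference of 0.27 (adjusted p = 0.448), and with slide as a block, with 0.28 (adjusted p = 0.643). Hpgd, which inactivates prostaglandins, rose by 1.71. The liver and plasma protein list, which shares Cyp2e1, moved alongside: 4 of its 6 measured genes rose, Cyp2e1, Vtn, Fgg and Hpx, and its mean was 9.58 to 9.69 at PN14, against 8.73 to 8.82 at PN7. In that list Afp differed by -0.04 and Ahsg by 0.03, and the part of liver-type RNA in the result was not tested. The change was larger in Lewis than in Fisher for 5 of the 21 genes, Fmo2, Fmo1, Cyp2e1, Sult1a1 and Aox1, and larger than in Brown Norway for Cyp2e1 and Aox1; with median scaling Fmo2 passed against Fisher and Aox1 against Brown Norway.

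Of 37 antioxidant genes 11 rose and 6 fell, the second a share near the 17.6% of all probes that were lower; with median scaling 11 rose and 2 fell. Gpx3, the secreted glutathione peroxidase, had 14.59, 14.38, 14.68 and 14.64 at PN14, against 13.08, 12.78, 12.78 and 12.82 at PN7, with no overlap (3.27-fold higher, adjusted p = 8.77e-10). Extracellular superoxide dismutase, Sod3, rose by 1.26 and Gpx2, an epithelial glutathione peroxidase, by 0.91, while the Sod3 call was lost with slide as a block (adjusted p = 0.223). Cp, the copper ferroxidase ceruloplasmin, had 10.35, 9.87, 10.1 and 10.07 at PN14, against 11.52, 11.65, 12.03 and 11.43 at PN7 (2.96-fold lower, adjusted p = 6.91e-07). Prdx2, a peroxiredoxin abundant in red cells, fell by 0.86 (adjusted p = 0.0656 with the slide block).

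Extracellular matrix genes gave no common direction: over the list of 33 elastic fibre and collagen genes, 8 rose and 6 fell, with a median of 0.03, and with median scaling the counts were 8 and 2. Fbn2, fibrillin-2, the fibrillin of developing microfibrils, had 9.17, 8.9, 8.91 and 8.73 on PN14 replicates 1 to 4, against 11.1, 10.68, 11.14 and 11.02 on PN7 replicates 1 to 4. It was 4.16-fold lower, with no overlap (difference -2.06 ± 0.2 SE, adjusted p = 1.38e-08). Vcan, the large hyaluronan-binding proteoglycan versican, had 10.3, 10.44, 10.16 and 10.11 at PN14, against 12.07, 12.05, 12.38 and 11.78 at PN7 (3.54-fold lower, adjusted p = 3.8e-09). Mfap2, a microfibril-associated glycoprotein, fell by 1.02 and Efemp2, fibulin-4, needed for elastic fibre assembly, by 0.68, a call lost with median scaling (adjusted p = 0.146). Eln, tropoelastin, had 15.72, 15.08, 15.33 and 15.07 at PN14, against 15.07, 14.72, 14.7 and 14.81 at PN7; the ages touched at 15.07, and the difference of 0.47 did not pass (adjusted p = 0.233). On slide 2 alone Eln differed by 0.98 (adjusted p = 0.00256), and with slide as a fixed block by 0.17 (adjusted p = 0.808). Col1a1 had 13.31, 13.48, 13.36 and 13.13 at PN14, against 12.91, 12.83, 12.68 and 13.09 at PN7 (difference 0.44, adjusted p = 0.143), while Col3a1, collagen III, rose by 0.83 (adjusted p = 0.00248), a call lost with slide as a block (adjusted p = 0.341).

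Mfap5, another microfibril glycoprotein, rose by 0.87, a call lost with slide as a block (adjusted p = 0.298) and on slide 2 alone (adjusted p = 0.0581). Mgp, matrix Gla protein, a mineralisation inhibitor, had 14.86, 15.02, 15.15 and 15.18 at PN14, against 13.37, 13.48, 12.87 and 13.44 at PN7 (3.38-fold higher, adjusted p = 6.68e-09). Prelp, a leucine-rich proteoglycan, rose by 1.76, or 1.09 with slide as a block, and the heparan sulfate proteoglycan gene Gpc4 fell by 0.86. Among 20 matrix proteases and inhibitors, 3 rose, Adamts2, Timp2 and Ctss, and 8 fell, beside 15% and 17.6% over the array; with median scaling 3 rose and 3 fell. Serpine2, protease nexin-1, had 9.73, 9.54, 9.48 and 9.62 at PN14, against 11.04, 11.06, 10.87 and 10.99 at PN7 (2.62-fold lower, adjusted p = 1.76e-11). Timp1, an inhibitor of matrix metalloproteinases, fell by 1.06, Plat, tissue plasminogen activator, fell by 0.89, and Adamts2, a procollagen propeptidase, rose by 0.68 (adjusted p = 0.111 on slide 2 alone).

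Genes of fibroblasts and pericytes included large differences in both directions. Cd248, endosialin, a glycoprotein of fibroblasts and pericytes in growing tissue, had the smallest adjusted p of the named genes. It had 11.53, 11.84, 11.28 and 11.4 at PN14, against 13.25, 13.37, 13.29 and 13.02 at PN7 (3.29-fold lower, difference -1.72 ± 0.09 SE, adjusted p = 2.95e-13). Nrep, a small protein described in myofibroblasts, fell by 2.06, and Unc5c, a netrin receptor, by 2.1. Abcc9, the sulfonylurea receptor subunit used as a pericyte marker, rose by 1.59, and Gsn, the actin-severing protein gelsolin, by 1.9. Vtn, vitronectin, rose by 1.6. In the list of 18 myofibroblast and smooth muscle genes, 2 rose and 5 fell, and with median scaling 2 rose and none fell. Pdgfra, the receptor that marks myofibroblast precursors, rose by 0.83 and the pericyte proteoglycan Cspg4 by 0.81, while the contractile genes Myl9 and Actg2 fell by 0.97 and 0.74, calls lost with median scaling (adjusted p = 0.104 and 0.169). Pdgfra (adjusted p = 0.0609), Cspg4 (adjusted p = 0.0747) and Actg2 (adjusted p = 0.201) did not pass with slide as a block.

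Part of the marker genes of the gas-exchange epithelium rose. In the type I cell list 10 of 23 genes were higher and 1, Sema3a, was lower by 0.07, with a median of 0.35. Over the array 15% of probes were higher and 17.6% lower. Aqp5, the apical water channel of type I cells, had 11.79, 11.68, 12.34 and 11.74 at PN14, against 10.36, 10.39, 10.11 and 10.52 at PN7 (2.92-fold higher, adjusted p = 9.88e-05). Spock2, a proteoglycan of type I cells, rose by 1.48, the intracellular chloride channel protein Clic5 by 0.97, the sodium channel subunit Scnn1a by 0.82 and Ager, the receptor for advanced glycation end products, by 0.58. With slide as a block the Aqp5 difference was 0.93 and still passed, whereas Spock2 (adjusted p = 0.5) and Ager (adjusted p = 0.18) did not pass. On slide 2 alone Scnn1a did not pass (adjusted p = 0.0601).

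Of 16 type II cell and surfactant genes, 6 rose and none fell, beside 15% of probes higher and 17.6% lower over the array. Sftpa1, surfactant protein A, a collectin of innate defence, had 15.43, 15.31, 15.67 and 15.57 at PN14, against 14.61, 14.52, 14.41 and 14.38 at PN7, with no overlap (2.02-fold higher, adjusted p = 4.82e-07). Sftpc rose by 0.38 (adjusted p = 0.00661), and Sftpb differed by 0.18 (adjusted p = 0.461). In the airways, 7 of 16 club and secretory cell genes rose and none fell, beside the same shares. Scgb1a1 differed by 0.01 and Scgb3a2 by -0.06, but Scgb1a1 was between 16.01 and 16.06 on all 8 arrays, at the top of their range. Pigr, the polymeric immunoglobulin receptor that carries IgA across epithelium, had 9.4, 9.5, 9.79 and 9.49 at PN14, against 8.36, 8.32, 8.15 and 8.29 at PN7 (2.4-fold higher, adjusted p = 1.25e-09). Aldh1a1, a retinal dehydrogenase, rose by 0.92, or 0.54 with slide as a block, the secretoglobin Scgb1c1 by 1.72 and Sec14l3, a lipid-binding protein of airway cells, by 1.75; the calls of Scgb1c1 (adjusted p = 0.175) and Sec14l3 (adjusted p = 0.182) were lost with slide as a block. Among 20 ciliated cell genes, 3 rose, Mlf1, Tppp3 and Sntn, no larger a share than the 15% over all probes, and 1 fell, Tuba1a.

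In the endothelial list of 36 genes, 6 rose, a share near the 15% over all probes, and 3 fell, Fibin, Egfl7 and Kitlg, below the 17.6% over all probes, and with median scaling 10 rose and none fell. Tek, the angiopoietin receptor Tie2, had 10.39, 10.24, 10.41 and 10.53 at PN14, against 9.47, 9.59, 9.85 and 9.69 at PN7 (1.67-fold higher, adjusted p = 4.31e-06). Ace, the angiotensin-converting enzyme of the lung capillary surface, rose by 0.86 and the lymphatic hyaluronan receptor Lyve1 by 0.81 (adjusted p = 0.0675 on slide 2 alone). Vegfd, a growth factor of lymphatic vessels, had 9.06, 8.75, 8.8 and 8.98 at PN14, against 10.42, 10.24, 10.01 and 10.07 at PN7 (2.44-fold lower, adjusted p = 1.25e-09). Vegfa differed by 0.03 (adjusted p = 0.917). Of 24 genes of angiogenic signalling, 4 rose, a share near the 15% over all probes, and 2 fell, below the 17.6%. The receptors Tek, Notch1 and Notch4 and the Notch ligand Dll4 rose, and Vegfd and the guidance receptor Robo1 fell.

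Retinoid and growth factor genes included the named gene with the lowest difference. Crabp1, which binds retinoic acid in the cytoplasm, had 8.36, 8.29, 8.29 and 8.41 on PN14 replicates 1 to 4, against 10.96, 10.96, 10.63 and 10.95 on PN7 replicates 1 to 4. PN14 was near the floor while all PN7 arrays were well above it (5.81-fold lower, difference -2.54 ± 0.2 SE, adjusted p = 4.09e-10), and Lewis PN1 averaged 10.88. The Crabp1 difference was -3.61 with the authors' deposited log2 values. Of 13 retinoid genes 4 rose and 2 fell, beside 15% of probes higher and 17.6% lower over the array. The risers were Aldh1a1, Aldh1a2, Aldh1a3, by 0.15, and the retinoic acid-responsive chemoattractant Rarres2, while Crabp1 and the receptor Rara fell. With slide as a block 1 gene of the list was higher and 1 lower, Crabp1, and the Rarres2 call was lost (adjusted p = 0.213). Slc27a6, a fatty acid transporter, was 4.38-fold lower.

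Among 31 genes of TGF beta and BMP signalling, 7 rose and 6 fell, and with median scaling 6 and 2, beside 15% of probes higher and 17.6% lower over the array. Fst, follistatin, which binds activins, fell by 1.3 and Bmp7 by 0.59, the second a call lost with median scaling (adjusted p = 0.25). In the Wnt list of 14 genes 3 rose, the receptor Fzd8 by 0.92, Sfrp2 by 0.51 and Axin2 by 0.5, and 2 fell, the Wnt deacylase Notum by 0.45 and beta-catenin, Ctnnb1, by 0.42; with median scaling 3 rose and none fell. In the list of 14 FGF and PDGF genes 2 rose and 2 fell, shares near the 15% and 17.6% over all probes. Fgf7, a fibroblast factor for epithelium, rose by 0.45, and the feedback inhibitors Spry1 and Spry4 fell by 0.35 and 0.32. With slide as a block none of that list was higher and 2 were lower, and with median scaling 3 rose and 1 fell. Of 12 imprinted growth genes, 6 fell and 1 rose, Slc22a18, and with median scaling 1 fell and 1 rose. Plagl1, a zinc finger regulator of that network, fell by 0.98 and necdin, Ndn, by 0.68 (adjusted p = 0.126 with median scaling). Igf2, the fetal growth factor, had 11.67, 14.46, 11.46 and 12.08 at PN14, against 12.46, 12.83, 12.97 and 13.2 at PN7 (difference -0.45, adjusted p = 0.56); it was highest on PN14 replicate 2, and without that array the difference was -1.13 (adjusted p = 0.0788). On slide 2 alone Igf2 differed by -1.33 (adjusted p = 0.00479), and with slide as a fixed block by 0.03 (adjusted p = 0.98).

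Among 32 transcription factors of lung development, 5 rose and 7 fell, shares near the 15% and 17.6% over all probes, and with median scaling 8 rose and 2 fell. Hoxb5, a homeobox gene of lung mesenchyme, fell by 1.01, while Nfix, a nuclear factor I member, rose by 0.88 (adjusted p = 0.216 with slide as a block). The other risers were Klf9, Klf15, Tcf21 and Nfib. The Polycomb gene Cbx7 rose by 1.69 with no overlap. Of 29 genes of translation and RNA processing, 17 fell and 1 rose, Eef2; with median scaling 3 fell and 1 rose. Nop58, a nucleolar protein of ribosome assembly, fell by 1.14 and the splicing protein Hnrnpa2b1 by 0.91. Ribosomal protein genes were split, with 7 higher and 10 lower of 48, shares near the 15% and 17.6% over all probes, or 6 higher and none lower with median scaling. Rpl30 was the only probe of the 211 past 2-fold whose sign turned on slide 2, and it was chosen after its values were seen. It had 8.44, 10.82, 10.01 and 10.09 at PN14, against 8.26, 8.61, 8.81 and 9.02 at PN7, so that PN14 replicate 1, the array on slide 2, lay among the PN7 arrays (difference 1.17 over all arrays, -0.37 on slide 2).

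Of 23 genes that respond to glucocorticoids, 9 rose and 1 fell, and 10 were higher with slide as a block. Tsc22d3, the glucocorticoid-induced leucine zipper, had 13.64, 13.61, 13.76 and 14.4 at PN14, against 12.26, 12.13, 12.43 and 12.54 at PN7 (2.86-fold higher, adjusted p = 8.98e-07). The Krüppel-like factors Klf9 and Klf15 rose by 1.28 and 1.01, and the stress gene Ddit4, an inhibitor of mTOR signalling, by 1.28, or 2.06 with slide as a block. Ddit4 was uneven, at 11.27, 10.17, 11.54 and 11.45 at PN14, against 9.8, 9.77, 9.96 and 9.8 at PN7, and without PN14 replicate 3 it did not pass (adjusted p = 0.0556). The gene that fell was Rgs2, a regulator of G protein signalling. Of 13 circadian clock genes, 5 rose: Nr1d1, the repressor Rev-erb alpha, by 1.07, Tef by 0.98, Per2 by 0.81, Usp2 by 0.47 and Dbp by 0.36. Nr1d1 (adjusted p = 0.0602) and Per2 (adjusted p = 0.0567) did not pass with slide as a block, and on slide 2 alone Per2 differed by 0.23. The labels give no hour of tissue collection, so time of day was not tested.

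Immune genes rose in several lists, many of them from dim probes, beside 15% of probes higher and 17.6% lower over the array. Of 24 chemokines and lymphoid organisers, 11 rose and 2 fell, Cxcl13 and Ccl2, with a median of 0.34. With slide as a block 6 of the 24 were higher and 1 lower. Il33, an alarmin released by epithelial and stromal cells, had 12.47, 12.41, 12.58 and 12.67 at PN14, against 11.07, 11.25, 11.32 and 11.36 at PN7, with no overlap (2.43-fold higher, adjusted p = 8.17e-06). Ccl11, eotaxin, which attracts eosinophils, had 8.94, 9.47, 9.39 and 9.49 at PN14, against 8.17, 8.23, 8.18 and 8.22 at PN7, where it was detected on 2 of 4 arrays (difference 1.12, adjusted p = 6.84e-07; 0.66 with slide as a block). Cxcl12, a chemokine of stromal cells, rose by 0.78 and Ccl6 by 0.79, calls lost with slide as a block (adjusted p = 0.117 and 0.172). Cxcl13, a chemokine that draws B cells, had 8.6, 9.33, 8.5 and 8.8 at PN14, against 9.76, 10, 9.73 and 10.05 at PN7 (2.11-fold lower, adjusted p = 2.19e-05). Il4, Il13 and the macrophage receptor Marco were not detected on any of the 36 arrays.

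In the T cell and NK cell list 9 of 22 genes rose, beside 15% over all probes, and none fell, with a median of 0.21. With slide as a block 4 of the 22 were higher, beside 6.94% over all probes, and none lower. The mean of the list was between 8.66 and 8.69 at PN14, against 8.34 to 8.4 at PN7. Prf1, perforin of cytotoxic cells, had 8.92, 8.76, 9.03 and 9.01 at PN14, against 8.28, 8.25, 8.32 and 8.36 at PN7 (adjusted p = 1.14e-05), and Nkg7, of cytotoxic granules, rose by 0.38 (adjusted p = 0.0775 with slide as a block and 0.167 on slide 2 alone). With the authors' deposited log2 values the differences were 1.8 for Prf1 and 1.07 for Nkg7, and 3.14 for the dim chemokine Ccl11. The T cell receptor component Cd3e had 8.4, 8.47, 8.4 and 8.45 at PN14, against 8.23, 8.18, 8.22 and 8.23 at PN7; the ages did not overlap, but the difference of 0.21 did not pass (adjusted p = 0.424), nor did 1.28 with the authors' deposited values (adjusted p = 0.0937). None of 9 measured thymus genes passed, and their mean was between 8.58 and 8.69 at PN14, against 8.38 to 8.5 at PN7; the part of carried-over thymus in the T cell result was not tested. Of 8 B cell genes 4 rose, Cd37, Ebf1, Bank1 and Mzb1, and with slide as a block 2 were higher and none lower.

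Of 38 macrophage and monocyte genes, 9 rose and 2 fell, Plin2 and Ccl2, beside 15% of probes higher and 17.6% lower over the array. The median difference was 0.08 in that list, 0.2 for class I, 0.06 for interferon response and 0.16 for complement genes. With slide as a block 7 macrophage, 3 class I, 4 interferon response and 4 complement genes were higher, beside 6.94% over all probes. No macrophage gene and 1 gene of each of those other lists were lower there. Apoe, apolipoprotein E, made by macrophages and other cells, had 13.52, 13.62, 13.7 and 13.59 at PN14, against 11.26, 11.55, 11.09 and 11.91 at PN7 (4.45-fold higher, adjusted p = 1.49e-06). Adap2, a GTPase-activating protein for ARF proteins, was 4.39-fold higher. In antigen presentation 7 of 22 class I genes rose and 1, Psme2, fell. RT1-S3, a rat class I gene, rose by 0.93 and the immunoproteasome subunit Psmb8 by 0.85 (adjusted p = 0.293 with slide as a block). The class II chaperone Cd74 rose by 0.43 at an adjusted p of 0.0452, which was lost on leaving out any 1 of PN14 replicates 1, 3 and 4 or PN7 replicates 1 to 3, and with slide as a block (0.18, adjusted p = 0.611). Of 28 interferon response genes 9 rose and 1, Ube2l6, fell, with Ifi44 higher by 0.69 and Irf1 by 0.62 (adjusted p = 0.0962 with slide as a block). Of 21 complement genes 6 rose and 1 fell: C4b rose by 1.3 and the C1 inhibitor Serping1 by 1.04, while the terminal component C6 fell by 1.0. Serping1 did not pass with slide as a block (adjusted p = 0.053), nor C6 on slide 2 alone (adjusted p = 0.0726). Neutrophil genes gave 1 call in 20, Slpi; S100a8 (difference 0.4, adjusted p = 0.487) and Lcn2 (difference 0.62, adjusted p = 0.254) did not pass, although Lcn2 gained a call under the fixed slide block (adjusted p = 0.0289).

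Most red cell genes fell. Of 24 measured, 16 were lower, beside 17.6% over all probes, and none higher, with a median of -0.38. The lower count was 13 without PN14 replicate 2, 8 with slide as a block and 10 with median scaling, where the median was -0.2. Ahsp, the chaperone of alpha globin, had 12.19, 11, 11.72 and 11.7 at PN14, against 13.24, 13.39, 14.08 and 13.87 at PN7 (3.98-fold lower, adjusted p = 0.000301; adjusted p = 0.0977 with slide as a block). Fech, the last enzyme of haem synthesis, was 3.31-fold lower by its brighter probe (difference -1.73), while its second probe fell by 0.85 (adjusted p = 0.00641). The erythroid nuclear protein Hemgn was 3.33-fold lower, the rat red cell lectin Lgals5 2.65-fold lower and the haem synthesis enzyme Alas2 2.17-fold lower. On slide 2 alone Lgals5 (adjusted p = 0.127) and Alas2 (adjusted p = 0.212) did not pass, and 5 of the 24 genes were lower there. The mean of the list was 10.33 to 10.53 at PN14, against 10.89 to 11.24 at PN7. Lewis PN1 arrays lay at 10.33 to 10.58, so PN7 was the high point of the 3 ages. The PN1 arrays were all on slide 1, where PN7 replicate 1 lay at 10.89, and the other PN7 arrays were on slide 2. Fech by its brighter probe, Hemgn, Lgals5 and Alas2 were higher at PN7 than at PN1 (adjusted p between 8.09e-05 and 0.01). Ahsp did not pass there (difference 0.81, adjusted p = 0.288). Between PN7 and PN1, 6.85% of all probes differed, 3.17% higher and 3.69% lower at PN7. Hbb was near 16 on all 8 arrays, the top of their range, and did not pass.

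**Figure D5:**
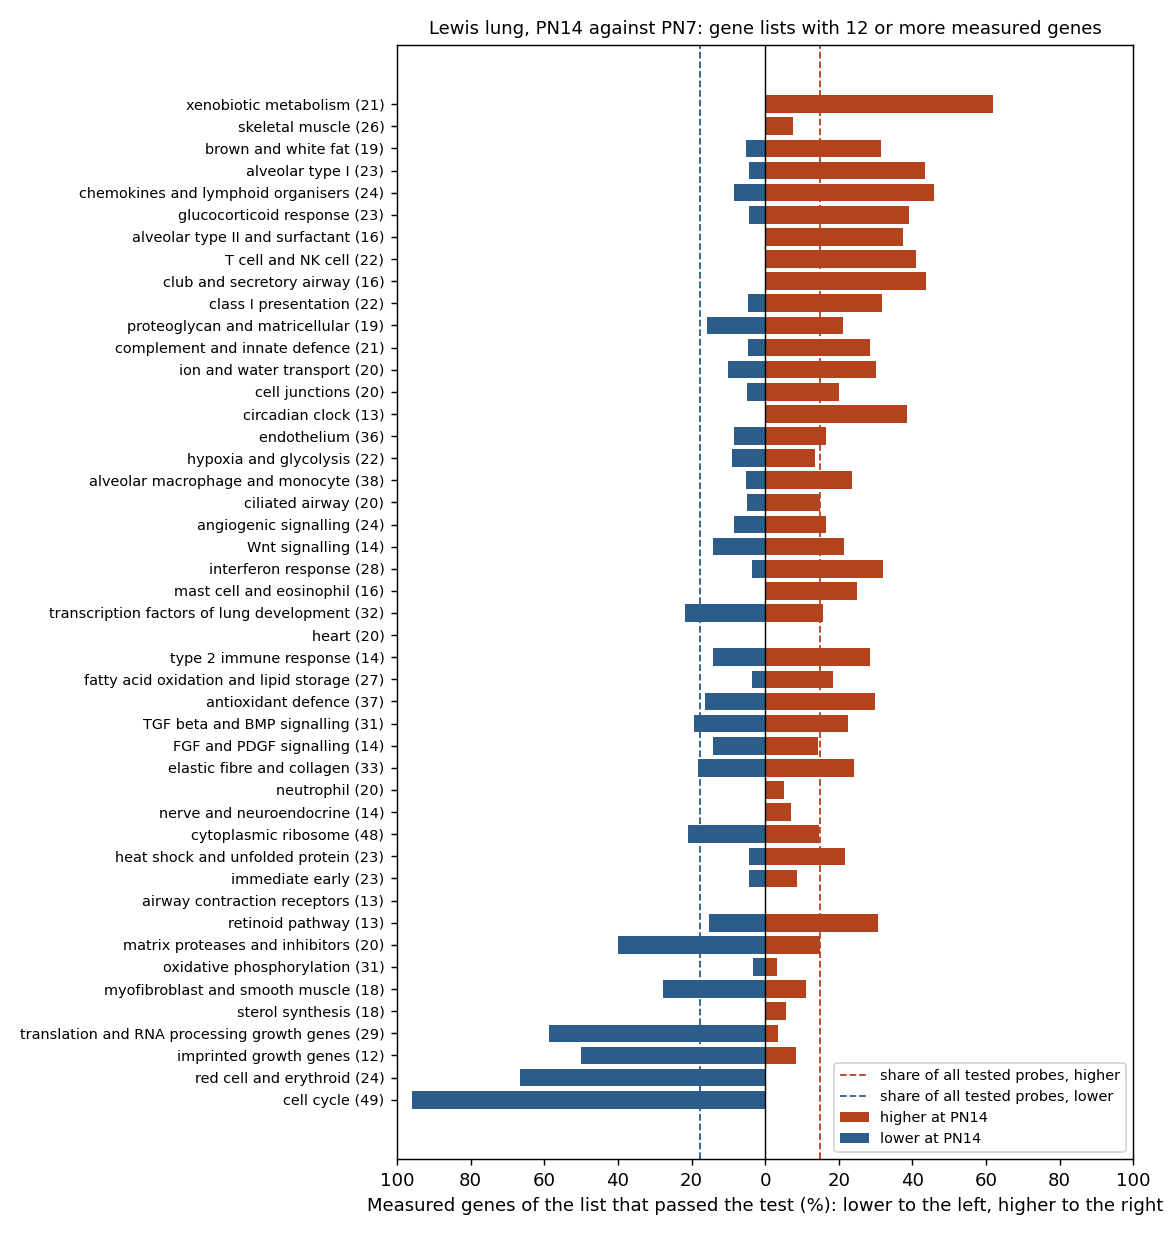
Share of the measured genes of each list that passed the test (horizontal axis, percent), higher at PN14 to the right of 0 and lower to the left, for the lists with 12 or more measured genes (rows, number measured in brackets), ordered by their median difference. Dashed lines mark the shares over all tested probes, 15% higher and 17.6% lower; the cell cycle and red cell lists reach far to the left and the xenobiotic metabolism list far to the right.

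The change between PN7 and PN14 was set against the same interval in the other strains. In Fisher lungs 655 probes differed (5.78%), 318 higher (2.8%) and 337 lower (2.97%), and in Brown Norway lungs 3058 (27%), 1385 higher (12.2%) and 1673 lower (14.8%). The difference of changes itself passed for 464 probes against Fisher (4.09%), with a larger change in Lewis for 434, and for 383 probes against Brown Norway (3.38%), with a larger change in Lewis for 209. By sign, 1.19% of probes were more positive and 2.9% more negative in Lewis than in Fisher, and 1.8% more positive and 1.58% more negative than in Brown Norway. These counts were sensitive to scaling, with 29 and 21 under median scaling. Without the 2 Brown Norway arrays that resembled each other's group they were 844 and 557. Of the genes described next, Cd248, Fbn2, Pigr, C4bpa, Mup5, Crabp1 and Clec2l passed against Fisher with median scaling too, and Aox1, C4bpa and Mup5 against Brown Norway; the other strain calls were lost there, with the same sign. Cd248 was more negative in Lewis than in both: PN14 minus PN7 was -1.72 in Lewis, against -0.54 in Fisher (adjusted p = 2.99e-06) and -0.72 in Brown Norway (adjusted p = 4.5e-05). Fbn2 differed between the ages by -2.06 in Lewis, against -0.7 in Fisher (adjusted p = 0.00569) and -0.55 in Brown Norway (adjusted p = 0.0037). Pigr differed between the ages by 1.26 in Lewis, against 0.02 in Fisher (adjusted p = 1.4e-05) and 0.38 in Brown Norway (adjusted p = 0.00112). Aox1 differed between the ages by 1.1 in Lewis, against 0.21 in Fisher and 0.17 in Brown Norway.

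C4bpa, a complement regulator, and Mup5, a major urinary protein of the lipocalin family, were detected on all 4 PN14 arrays and on none of the PN7 arrays, and were at least 1.26-fold and at least 1.3-fold higher. C4bpa had 8.51, 8.47, 8.47 and 8.53 at PN14, against 8.18, 8.16, 8.14 and 8.13 at PN7, and its differences in Fisher and Brown Norway were -0.02 and 0.02. The Lewis differences with the authors' deposited log2 values were 2.23 for C4bpa and 2.62 for Mup5. The difference of Tek between the ages was 0.74 in Lewis, against -0.04 in Fisher (adjusted p = 0.00204), and Sftpa1 by 1.01, against 0.15 in Fisher (adjusted p = 0.00394). That of Crabp1 was -2.54 in Lewis, against -0.58 in Fisher (adjusted p = 0.000131); against the Brown Norway difference of -2.33 the difference of changes was -0.21 (adjusted p = 0.741). Cirbp, a cold-inducible RNA-binding protein, had a difference of -0.62 in Lewis, against 0.26 in Fisher and 0.82 in Brown Norway; the Lewis difference did not pass with slide as a block (adjusted p = 0.187). Some genes had the larger difference in the other strain: Clec2l had 0.17 in Lewis and 1.2 in Fisher, and Rfc2, a replication factor C subunit, had -0.03 in Lewis and -0.54 in Brown Norway.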

How the data were processed

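Whole-lung RNA was labelled as biotin cRNA and hybridised to rat beadchips, per the labels' protocols. The deposited table held raw bead intensity and a detection p-value per probe and array, per the file headers; 36 further columns of per-sample values were not used. The authors' deposited log2 values, made with lumi per the submitters' processing notes, served as an alternative.

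Intensities were background-corrected by normexp on the detection p-values (offset 16), quantile-normalised and set to log2 with limma 3.58.1 in R 4.3.3. Of 22226 probes, 11339 were kept, those called detected (p under 0.01) on 3 or more arrays, and entered a model with 1 mean per strain and age over all 36 arrays and Benjamini-Hochberg adjustment over all tested probes. That model includes 2 Brown Norway arrays that resembled each other's group. The platform annotation gave 13192 probes 1 gene and 9034 none; Acta2, Sftpd, Pecam1, Kdr, Top2a, Igf1, Dlk1, H19 and Ighm were not named there and are not analysed here. The test was checked on simulated data. Alternatives changed the slide block, scaling, offset, filter, arrays and weights.

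Gene lists and members were chosen with earlier results of these data known. Genes were named if they passed, were detected on every array of at least 1 age, and kept sign without PN14 replicate 2 and on slide 2: the 20 highest and 20 lowest, up to 5 per list and 10 per strain comparison, plus a set of lung genes given whatever their values and the small counts spelled out by member. Replicate numbers were not treated as pairs.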

Additional observations from a re-analysis of the deposited data

Results flagged for a closer look

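For 52 of the 144 reported genes the PN14 minus PN7 difference was not the same in Lewis as in Fisher by the interaction test, and for 23 not the same as in Brown Norway; both comparisons use the same Lewis arrays. With median scaling all kept their sign, but 15 of the 52 passed (C4bpa, Ccl11, Cd248, Clec2l, Crabp1, Fbn2, Fcrl2, Fmo2, Kif22, Ly6i, Mup5, Mx2, Pigr, Tpx2 and Ttk), and 5 of the 23 (Aox1, C4bpa, Depdc1, Mis18a and Mup5), so the adjusted p-values below hold for quantile normalisation. The 144 genes were chosen partly by the interaction test itself and partly by the size of the Lewis difference. The counts of 52 and 23 are therefore in part set by that choice and give no rate for the array. Over all tested probes the interaction test passed for 4.09% against Fisher and 3.38% against Brown Norway. Values below are the Lewis difference minus that of the other strain on the log2 scale. Division genes were more negative in Lewis than in Fisher, with adjusted p between 0.000124 and 0.0452. The value was -1.58 for Kif22, -1.56 for Rrm2, -1.5 for Prc1, -1.49 for Ccna2 and -1.47 for Ccnb2, Tpx2 and Kifc1. It was -1.41 for Cdk1, -1.38 for Knstrn, -1.27 for Cks2, -1.23 for Ttk, -1.16 for Mcm6, -0.5 for Foxm1 and -0.27 for Mki67.

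Genes of stroma, matrix and signalling were also more negative in Lewis than in Fisher. The value was -1.96 for Crabp1, -1.35 for Fbn2, -1.21 for Slc27a6, -1.18 for Unc5c and Cd248, -1.03 for Vcan and -1.02 for Mfap2. It was -0.94 for Timp1, -0.8 for Serpine2 and Plagl1, -0.63 for Plat, -0.86 for Hoxb5, -0.78 for Vegfd, -0.95 for Cp, -0.91 for Cxcl13 and -0.88 for Cirbp. Clec2l at -1.03, Mx2 at -0.78 and Fcrl2 at -0.36 had larger differences in Fisher, of 1.2, 0.95 and 0.32. The adjusted p of the genes in this paragraph lay between 5.59e-07 and 0.0491.

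A more positive value in Lewis than in Fisher was found for Fmo2 at 2.42, Fmo1 at 1.69, Cyp2e1 at 1.43, Ly6i at 1.36, Hpgd at 1.26, Pigr at 1.24, Sult1a1 at 1.15 and Abcc9 at 1.05. Smaller values were 0.99 for Ccl11, 0.89 for Aox1, 0.87 for Sftpa1, 0.85 for Cbx7, 0.79 for Tek, 0.77 for Gpx3, 0.64 for Gpx2, 0.63 for Lyve1, 0.35 for C4bpa and 0.33 for Mup5. C4bpa and Mup5 were detected on none of the Lewis PN7 arrays. Their values here and against Brown Norway therefore rest on a Lewis PN7 level at the floor of the array. The value of 0.47 for Plcxd3 rests on a difference in Fisher of -0.55, since the gene was detected on none of the 8 Lewis arrays. The adjusted p of the genes in this paragraph lay between 2.28e-06 and 0.0487.

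Against Brown Norway the value was -1.5 for Fbn2, -1.44 for Cirbp, -1.06 for Nop58, -1 for Cd248, -0.97 for Plat, -0.92 for Vcan, -0.85 for C6, -0.75 for Vegfd, -0.73 for Alkbh3, -0.62 for Mfap2, -0.54 for Tcf20 and -0.51 for Serpine2. It was 1.42 for Cyp2e1, 1.24 for Cxcl12, 0.93 for Aox1, 0.89 for Pigr, 0.82 for Lyve1, 0.63 for Prf1, 0.51 for Rfc2 and Mis18a, 0.4 for Mup5, 0.32 for C4bpa and 0.26 for Depdc1, which was detected on no Lewis array of either age. The adjusted p lay between 1.25e-06 and 0.0385.

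Among 288 groups of 4 arrays, 17 had an array far from the other 3 by Dixon's criterion, which chance meets in about 1 group in 20. At PN14, replicate 2 stood apart for Acta1 at 15.7, Myoz1 at 11.71, Tnnt3 at 9.91 and Bmp7 at 9.22, replicate 3 for Aqp5 at 12.34, and replicate 1 for Cxcl12 at 12.07 and C6 at 8.82. At PN7, replicate 1 stood apart for Gpx3 at 13.08 and Scgb1a1 at 16.01, and replicate 2 for Ube2c at 11.2 and Cd3e at 8.18. Replicate 3 of PN7 did so for Crabp1 at 10.63, Vtn at 9.52 and Ddit4 at 9.96, and replicate 4 for Kifc1 at 11.01, Fmo2 at 8.43 and Plcxd3 at 8.1. In Crabp1, Kifc1, Fmo2, Gpx3 and Aqp5 the ages did not overlap with that array included.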

How the results depend on the processing

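Counts of calls moved more than signs. Against 3687 probes, 1811 passed with slide as a fixed block, 1593 with that block without the 2 Brown Norway arrays (an alternative chosen after seeing the data), 1708 within slide 2 and 2327 with median scaling; leaving out 1 array gave 3069 to 3513. For the difference of changes against Fisher, 464 probes became 844 without the 2 Brown Norway arrays, 29 with median scaling, 1113 with array weights and 342 to 543 on leaving out 1 array. Against Brown Norway, 383 became 21 with median scaling and 834 with array weights, and ranged from 240 to 442 on leaving out 1 array, with 251 without PN14 replicate 2, 240 without PN14 replicate 3 and 255 without PN7 replicate 1. Of 55 list medians, 41 moved by more than 1 SD with median scaling and 27 with the authors' deposited values. Signs of list medians changed in 9 lists with slide as a fixed block, 13 within slide 2, 13 with the block without the Brown Norway arrays and 10 with median scaling, mostly medians under 0.1 in size; of larger ones, 3 turned: proteoglycan and matricellular genes to -0.17 with slide as a block, skeletal muscle to -0.02 within slide 2 and with the block without the Brown Norway arrays, and brown and white fat to -0.01 in those 3 settings. Among the 120 reported genes that passed, Rpl30 turned to -0.37 on slide 2 and with the block without the Brown Norway arrays, and Alkbh3 to 0.02 with median scaling. Genes were named by rule only if their sign held on slide 2 and without PN14 replicate 2. Rpl30 was added for its turn, so the signs of these genes in those settings were largely fixed by the choice. Of the 24 that did not pass, 7 changed sign with slide as a fixed block, 5 within slide 2 and 3 with median scaling. Of all 144, 31 lost and 1 gained a call with slide as a fixed block. Between the ages, deviations of replicates 1 to 4 correlated with those of the same number at 0.27, 0.37, -0.06 and 0.08. The highest correlations with another number were 0.05, -0.05, 0.33 and 0.19. Replicates 1 and 2 thus went more with their own number, and replicates 3 and 4 did not. A replicate block on the 8 Lewis arrays gave 2880 probes, against 3212 without it. The cause of these shifts was not tested. Signals near 8 and near 16 limit what the arrays resolve.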

Other observations

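Among groups not described above, genes of oxidative phosphorylation, sterol synthesis and airway contraction moved little between PN14 and PN7. Over the array 15% of probes were higher and 17.6% lower. Of 31 genes of oxidative phosphorylation 1 rose, Sdha, and 1 fell, Ndufa8, and of 18 sterol synthesis genes 1 rose, Ebp. None of 13 measured receptors of airway contraction passed. In the heat shock and unfolded protein list 5 of 23 genes rose, among them Herpud1 by 0.85 and Ddit3 by 0.59, and 1 fell, Dnaja1; the change differed from that of Brown Norway for 5 of the 23 (Calr, Hspa5, Pdia4, Creld2 and Hspa8), higher in Lewis each time. Fatty acid oxidation and lipid storage genes had 5 of 27 higher, with the medium-chain acyl-CoA dehydrogenase Acadm up by 0.67, and 1 lower, the lipid droplet protein Plin2.

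Ion and water transport genes had 6 of 20 higher and 2 lower. Beside Aqp5 the sodium channel subunits Scnn1a and Scnn1b rose, and the water channel Aqp4, of airway cells, fell by 0.63. Of 20 cell junction genes 4 rose, E-cadherin (Cdh1), plakoglobin (Jup), plakophilin 2 (Pkp2) and F11r, and beta-catenin (Ctnnb1) fell by 0.42. Among 16 mast cell and eosinophil genes 4 rose, of which Gata2, a transcription factor of mast cells and endothelium, by 0.98 and the proteases Mcpt10 and Tpsb2 by 0.19 and 0.1. Of 14 type 2 response genes 4 rose, Il33, Ccl11, Itln1 and Clca1, and 2 fell, Ccl17 and Il13ra1, by 0.13 and 0.06.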
